A study of Mus musculus with 96 samples.

Results

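miR-132 and miR-212 were measured as 4 mature strands, mmu-miR-132-3p, mmu-miR-132-5p, mmu-miR-212-3p and mmu-miR-212-5p, written without the species prefix from here on. They were taken by name, a rule that uses no measured value, and are 4 of 1978 mature mouse miRNAs listed in the count tables and of 1561 with at least 1 count. Small RNA came from fractions enriched for endothelial cells (ECs), fibroblasts (FBs), cardiomyocytes (CMs) or hematopoietic cells (HCs), isolated from the hearts of male C57Bl/6J mice. The hearts came from mice without myocardial infarction (MI), called D0, and from mice at D1, D3, D7, D14 and D28 after MI. MI was made by permanent ligation of a coronary artery in mice 12 to 14 weeks old. The D0 mice had no operation, so effects of MI and of the surgery itself cannot be told apart. Each of the 24 groups of cell type and day had 4 libraries, 96 in all, and each library held RNA pooled from 3 mice, or from fewer where a sample was missing. CMs were enriched by slow centrifugation, HCs with beads against CD45, ECs with beads against CD144 and FBs by adhesion to plastic, so a fraction can hold other cells. Within a day the 4 cell types came from the same mice, so libraries compared between cell types share animals. In such libraries a change in the number of cells of one type cannot be told apart from a change in the RNA of each cell.

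A miRNA is cut from a hairpin with a 5p and a 3p strand, and a retained strand represses transcripts that pair with its seed, bases 2 to 8. miR-132 and miR-212 are made from a common primary transcript that responds to the transcription factor CREB. In cardiomyocytes both are known to promote hypertrophic growth and to repress Foxo3, an anti-hypertrophic transcription factor. In endothelium miR-132 is known to repress Rasa1, a brake on Ras signalling in vessel growth. The comparisons addressed how each strand depended on cell type and on time after MI, and whether the strands of the hairpins moved together.

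The mature strands are shown because the seed sets the 3p strands apart from the 5p strands. They are given 5′ to 3′ from RefSeq, build GRCm38.p6, in which all 4 were matched, with the seed in capitals.
miR-132-3p: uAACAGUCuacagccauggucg
miR-212-3p: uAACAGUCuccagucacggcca
miR-132-5p: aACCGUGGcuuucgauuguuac
miR-212-5p: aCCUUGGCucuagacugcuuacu
The 3p strands shared the seed AACAGUC with each other and with no other mature mouse miRNA of the reference, whereas the seeds ACCGUGG of miR-132-5p and CCUUGGC of miR-212-5p were each found once. The 3p strands were identical at 17 of 22 positions (77.3%). They differed by A10C, C14U, U17C, U20C and G22A, with the base of miR-132-3p first and positions counted from 1 at the 5′ end. The 5p strands were identical at 14 of 21 aligned bases when shifted by 1 base. No member had the same counts as another listed miRNA in all libraries.

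The hairpins are shown to place both strands, which are in capitals with the 5p strand first.
Mir212: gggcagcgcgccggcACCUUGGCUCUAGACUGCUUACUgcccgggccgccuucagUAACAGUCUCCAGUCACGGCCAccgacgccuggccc
Mir132: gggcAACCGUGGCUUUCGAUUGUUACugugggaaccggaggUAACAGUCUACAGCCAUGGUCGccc
In GRCm38.p6, Mir212 spans 91 bases at chr11:75173388-75173478 and Mir132 spans 66 bases at chr11:75173682-75173747, both on the plus strand with 203 bases between them. Both lie in intron 1 (chr11:75172598-75173977) of the non-coding transcript 1700016P03Rik, on the plus strand at chr11:75172560-75177633. The nearest annotated protein-coding gene was Ovca2 on the minus strand, 2195 bases from Mir132.

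Mature miRNA counts per library ranged from 18286 to 65588543 (median 12289039), and ECs had the lowest median of the cell types. Replicate 3 of HCs at D0 was the library with 18286 counts. It held 2 counts of miR-132-3p and none of the other members, and 3 counts in it correspond to 164 CPM, the count scaled to the library total, so the members could not be measured in it. The marker miRNAs of each cell type were highest in their own fraction, although miR-150-5p, a lymphocyte marker, reached 98.4% of its HC level in ECs, and miR-1a-3p, a muscle marker, reached 14.4% and 12.2% of its CM level in ECs and HCs. RNA input, PCR cycles and preparation batch went with cell type, so their part in a difference between cell types cannot be told apart from the cell type.

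The members were of low to moderate abundance, and the favoured strand differed between the hairpins. Over all libraries miR-132-3p had 38595 counts and miR-132-5p 10108, whereas miR-212-5p had 31005 and miR-212-3p 4545. miR-212-3p was at 0 in 7 libraries. Counting error therefore weighed most on miR-212-3p.

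miR-132-3p was highest in ECs, where the 24 libraries had a median of 71.6 CPM (lowest 11.3, highest 95). FBs had a median of 41.9 CPM (20.2 to 92.6), HCs of 21.8 CPM (10.6 to 109) and CMs of 5.92 CPM (0.425 to 12). The ranges of ECs, FBs and HCs overlapped, and 0 EC or FB library other than the lowest EC library, at D28, fell within the CM range. miR-212-3p, with the same seed, followed the same order, with medians of 7.99 CPM in ECs, 4.79 CPM in FBs, 2.39 CPM in HCs and 0.868 CPM in CMs. The 5p strands were highest in FBs. miR-212-5p had medians of 38.5 CPM in FBs, 32.9 CPM in ECs, 16.5 CPM in HCs and 2.43 CPM in CMs. miR-132-5p had medians of 11.5, 9.91, 5.85 and 1.91 CPM in FBs, ECs, HCs and CMs.

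**Figure D1:**
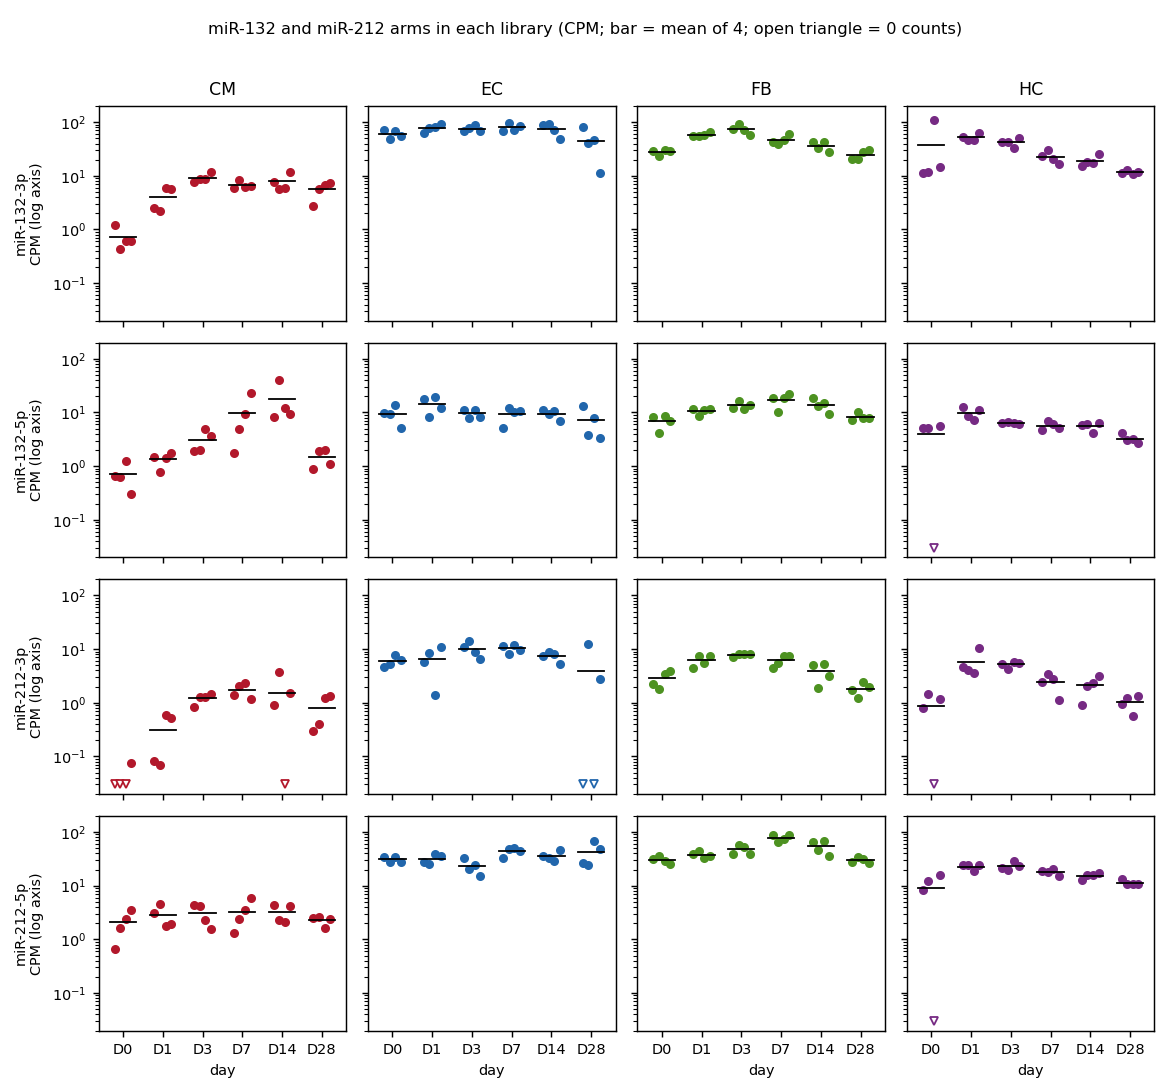
CPM of each member (rows) in every library (points, 4 per group) by cell type (columns) and day after MI, on a log axis. Bars mark the means of 4 libraries and open triangles mark libraries at 0. miR-132-3p lay at 0.425 to 1.24 CPM in CMs at D0 and at 7.76 to 11.9 CPM at D3, and the single high point of HCs at D0 is the library with 18286 counts.

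The levels were compared between cell types with edgeR's quasi-likelihood test on all 96 libraries, as a mean over the 6 days, with Benjamini-Hochberg adjustment over 712 miRNAs and scaling by the trimmed mean of M values (TMM). All 4 members were higher in ECs and in FBs than in HCs. Log2 differences between ECs and HCs were 2.29 ± 0.11 (SE) for miR-132-3p (adjusted p = 2.0e-35), 2.47 ± 0.19 for miR-212-3p (adjusted p = 1.9e-21), 1.47 ± 0.16 for miR-132-5p (adjusted p = 2.9e-14) and 1.78 ± 0.13 for miR-212-5p (adjusted p = 7.2e-22). The differences between FBs and HCs ran from 1.45 for miR-132-3p to 2.00 for miR-212-5p. At single days ECs exceeded HCs in 24 of 24 comparisons and FBs exceeded HCs in 23 of 24, where 25.3%, 31.9%, 37.9%, 34.3%, 27% and 25.8% of all tested miRNAs from D0 to D28 were called higher in ECs and 26.8%, 36.2%, 34.6%, 32.4%, 30.9% and 29.4% in FBs. Such differences were common, since 77.7% of all tested miRNAs differed between ECs and HCs and 85.7% between FBs and HCs.

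As a mean over the days, ECs and FBs were separated by the 3p strands. miR-132-3p was 0.83 ± 0.10 (log2, SE) higher in ECs than in FBs (edgeR, adjusted p = 3.6e-12) and miR-212-3p 1.00 ± 0.18 higher (adjusted p = 4.8e-07), where 71.8% of all tested miRNAs differed. For the 5p strands, ECs minus FBs was -0.13 ± 0.15 for miR-132-5p (adjusted p = 0.46) and -0.22 ± 0.13 for miR-212-5p (adjusted p = 0.12). At single days miR-132-3p was not called at D1 (adjusted p = 0.053) and D3 (adjusted p = 0.21), nor miR-212-3p at D1, D3 and D7. Both 5p strands were called lower in ECs at D7 (miR-132-5p -0.83, adjusted p = 0.033, and miR-212-5p -0.77, adjusted p = 0.027) and on no other day.

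CMs were lower than ECs and FBs in most members. CMs minus ECs was -2.46 ± 0.11 for miR-132-3p (edgeR, adjusted p = 4.4e-37), -2.53 ± 0.24 for miR-212-3p (adjusted p = 1.6e-16) and -2.10 ± 0.14 for miR-212-5p (adjusted p = 4.2e-25), while miR-132-5p gave -0.20 ± 0.16 (adjusted p = 0.28). This mean for miR-132-5p joined days of opposite sign. It was -1.17 at D0 (adjusted p = 0.012) and -1.39 at D1 (adjusted p = 0.0021), but 1.05 at D7 (adjusted p = 0.0066) and 1.43 at D14 (adjusted p = 0.00049). At D3 and D28 CMs minus ECs of miR-132-5p was -0.33 and -0.79, neither past the threshold. CMs minus FBs was -1.63 ± 0.11 for miR-132-3p (adjusted p = 5.6e-26), -1.53 ± 0.25 for miR-212-3p (adjusted p = 3.4e-08), -2.32 ± 0.14 for miR-212-5p (adjusted p = 1.9e-28) and -0.33 ± 0.15 for miR-132-5p (adjusted p = 0.037). Of all tested miRNAs, 69.4% differed between CMs and ECs and 75.7% between CMs and FBs. Against HCs, miR-132-5p was 1.26 ± 0.15 higher in CMs (adjusted p = 4.2e-12) on the TMM scale but 0.90 lower when libraries were scaled by size alone, and 77.7% of miRNAs differed in that pair. miR-132-3p gave CMs minus HCs of -0.18 ± 0.11 (adjusted p = 0.13) on the TMM scale and -2.36 by library size alone, so its position relative to HCs depended on the scaling. It also depended on the day. On the TMM scale it was -1.04 at D0 (adjusted p = 0.0035), -0.93 at D1 (adjusted p = 0.00082) and 0.81 at D28 (adjusted p = 0.0037), and not called at D3, D7 and D14.

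In CMs, 3 of the 4 members rose after MI and the fourth fell on the TMM scale. miR-132-3p was called above D0 from D1 to D28 and miR-212-3p from D3 to D28, miR-132-5p rose at D7 and D14, and miR-212-5p fell at D7, D14 and D28. Over 4 members and 5 days edgeR called 14 of 20 comparisons with D0, 11 of them higher and 3 lower. Of the 484 miRNAs tested in CMs, 25%, 55.2%, 69%, 67.1% and 54.3% were called from D1 to D28, in the order of the days. The 4 summed CM marker miRNAs went within these libraries from a mean of 659155 CPM at D0 to 374193 CPM at D14. Most of this sum was miR-1a-3p (mean 505167 CPM in CMs), which changed by -3.51 at D14 on the TMM scale (log2, edgeR, adjusted p = 5.1e-08). The other CM markers went the other way at D14 and were called higher (miR-133a-3p 1.54, miR-208a-3p 1.77 and miR-499-5p 0.70). Scaled by library size alone, the median change of all tested miRNAs was 1.42, 2.37, 2.67, 2.99 and 1.99 (log2) from D1 to D28, against 0.20, 0.44, 0.35, 0.41 and 0.25 with TMM, and 388 miRNAs were called higher and 31 lower at D7 instead of 188 and 146. Changes in CMs are for that reason also given relative to the median of all tested miRNAs.

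miR-132-3p was measured at 1.24, 0.425, 0.623 and 0.612 CPM in replicates 1 to 4 of CMs at D0. The values were 2.51, 2.18, 5.84 and 5.75 CPM at D1 and 7.76, 8.67, 8.57 and 11.9 CPM at D3. They were 5.81, 8.39, 6.10 and 6.42 CPM at D7, 7.78, 5.61, 6.01 and 12 CPM at D14, and 2.73, 5.57, 6.80 and 7.49 CPM at D28. All 20 libraries after MI lay above all 4 at D0 in CPM, while on the TMM scale D14 overlapped D0. On the TMM scale the change was 1.21 ± 0.32 (log2, SE) at D1 (edgeR, adjusted p = 0.010) and 1.78 ± 0.32 at D3 (adjusted p = 8.7e-05). It was 0.93 ± 0.32 at D7 (adjusted p = 0.012), 0.90 ± 0.32 at D14 (adjusted p = 0.016) and 1.18 ± 0.32 at D28 (adjusted p = 0.0033). Relative to the median miRNA the changes were 1.01, 1.34, 0.58, 0.49 and 0.93 with TMM and 1.08, 1.31, 0.54, 0.48 and 0.98 by library size. With only the libraries of the 2 days compared, D1 (1.24, adjusted p = 0.066) and D14 (0.96, adjusted p = 0.068) were not called. The call at D14 was lost without replicate 4 of D14 (0.46), and also without replicate 2 or 4 of D0 or replicate 1 of D14 (0.73 to 0.75).

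miR-212-3p rested on 1 count over all 4 CM libraries at D0, which had 0, 0, 0 and 0.0765 CPM. At D3 it had 0.831, 1.27, 1.27 and 1.43 CPM and at D7 1.38, 2.06, 2.31 and 1.18 CPM. At D14 the libraries had 0.905, 3.68, 0 and 1.54 CPM. Every library at D3, D7 and D28 lay above those of D0, whereas 1 library of D14 held no count. Pooled over 4 libraries, the CPM ratio to D0 was 15.5 at D1 (95% interval from counting alone 2.48 to 642), 65.1 at D3 (11.3 to 2611) and 92.1 at D7 (16.2 to 3673). It was 87.2 at D14 (14.9 to 3518) and 39.1 at D28 (6.57 to 1588). These ratios are on the library size scale. With TMM the change was 2.49, 3.89, 4.04, 3.63 and 3.39 (log2) from D1 to D28. Relative to the median miRNA it was 2.29, 3.45, 3.68, 3.22 and 3.14 with TMM and 2.05, 3.06, 3.27, 2.83 and 2.82 by library size. edgeR called the rise from D3 to D28 (adjusted p = 0.0044, 0.0020, 0.0066 and 0.015) and not at D1 (adjusted p = 0.14).

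miR-132-5p in CMs had 0.666, 0.637, 1.25 and 0.306 CPM at D0. At D7 its libraries had 1.74, 4.91, 9.50 and 23.4 CPM and at D14 8.33, 40.4, 12 and 9.17 CPM. By D28 the values were 0.885, 1.88, 1.98 and 1.10 CPM and overlapped D0. In CPM D7 and D14 lay wholly above D0, with the widest spread between libraries of any day in CMs, while on the TMM scale D7 overlapped D0. On the TMM scale the change was 1.38 ± 0.61 (log2, SE) at D7 (edgeR, adjusted p = 0.049) and 1.96 ± 0.62 at D14 (adjusted p = 0.0077), and relative to the median miRNA 1.03 and 1.55 (1.09 and 1.58 by library size). Both calls rested on single libraries, since the change was 0.44 at D7 without replicate 4 and 0.96 at D14 without replicate 2, neither past the threshold. The D7 call was also lost with the replicate number as a block (1.32), with only the libraries of D0 and D7 (1.52), and without replicate 1, 2 or 4 of D0 or replicate 3 of D7.

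miR-212-5p in CMs had 0.666, 1.63, 2.43 and 3.52 CPM at D0. It had 1.31, 2.37, 3.47 and 5.77 CPM at D7, 4.34, 2.32, 2.10 and 4.22 CPM at D14 and 2.51, 2.62, 1.61 and 2.42 CPM at D28. In CPM all 3 days overlapped D0, so the decrease appeared only relative to the other miRNAs. On the TMM scale it fell by 1.68 at D7 (edgeR, adjusted p = 0.0094), fell by 1.89 at D14 (adjusted p = 0.0057) and fell by 1.52 at D28 (adjusted p = 0.025), while library size alone gave 0.64, 0.68 and 0.14. Relative to the median miRNA the change was -2.03, -2.31 and -1.77 with TMM and -2.03, -2.31 and -1.85 by library size. The call at D28 was lost without replicate 3 or 4 of D0 or replicate 2, 3 or 4 of D28 (-1.32 to -1.47).

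Because the members were higher in ECs than in CMs, their level in CM libraries was set beside that of the EC markers miR-126a-3p and miR-126a-5p. Summed, these markers reached 3.5%, 5.83%, 9.78%, 9.77%, 11% and 11.7% of their EC level in CM libraries from D0 to D28. miR-132-3p in CM libraries was at 1.18%, 5.18%, 12.1%, 8.37%, 10.5% and 12.5% of its EC level on the same days, and miR-212-3p at 0.318%, 4.73%, 11.9%, 16.8%, 20.6% and 21.1%. The shares of the 3p strands and of the EC markers in CM libraries were thus all higher after MI than at D0. Both 3p strands started below the markers at D0, and miR-212-3p stood above them from D3 on. The part of endothelial RNA in the rise of the 3p strands was not tested. miR-132-5p reached 104% of its EC level at D7 and 184% at D14, well above the share of the markers. miR-212-5p ranged from 5.45% to 13.3%. In the TMM fit of CMs the EC markers went apart, since miR-126a-5p was higher at D3 (1.61, edgeR, adjusted p = 0.0038) to D28 and miR-126a-3p lower at D7 and D14 (-0.87 at both). The summed FB markers in CM libraries were at 0.104%, 0.37%, 1.21%, 3.18%, 3.04% and 1.43% of their FB level from D0 to D28, and the HC markers at 0.387%, 0.301%, 0.619%, 1.3%, 1.5% and 0.741% of their HC level. In the same fit of CMs the 3 FB markers were each called higher from D3 on (miR-199a-5p by 2.60 at D3, edgeR, adjusted p = 1.3e-06, and miR-214-3p by 3.48 at D7, adjusted p = 2.0e-05). Of the HC markers, miR-223-3p (4.78 at D3, adjusted p = 1.5e-05), miR-142a-5p (3.74 at D3, adjusted p = 1.5e-05) and miR-142a-3p were called higher on each day and miR-150-5p on no day. The part of RNA from these cells in the CM changes was not tested either.

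**Figure D2:**
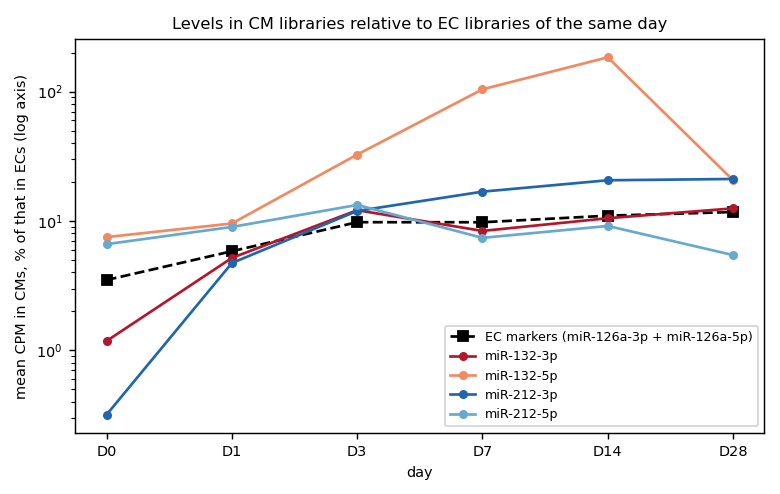
Mean level in CM libraries as a percentage of the mean level in EC libraries of the same day (y axis, log scale) by day after MI, for the 4 members and the summed EC markers miR-126a-3p and miR-126a-5p. miR-132-3p lay below the markers at D0 (1.18% against 3.5%) and near them from D3 on (12.1% against 9.78% at D3). miR-132-5p stood at 104% at D7 and 184% at D14.

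In FBs all 4 members rose after MI. miR-132-3p rose from D1 to D7, miR-212-3p at D3 and D7, and both 5p strands at D7 and D14. At D28 no member was called. edgeR called 9 of 20 comparisons with D0, each of them higher. Of 563 miRNAs tested in FBs, 7.99%, 43%, 45.6%, 24.7% and 6.75% were called from D1 to D28, in the order of the days.

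miR-132-3p in FBs had 29.5, 23.9, 30.8 and 28.6 CPM at D0. It had 55.7, 54.0, 58.3 and 66.7 CPM at D1, 76.1, 92.6, 70.8 and 56.9 CPM at D3 and 42.1, 39.4, 45.7 and 59.8 CPM at D7. All 12 of these libraries lay above those of D0, and at D28 the values (20.8, 20.2, 27.8 and 30.7 CPM) overlapped D0. The change was 0.87 ± 0.19 (log2, SE) at D1 (edgeR, adjusted p = 0.0034), 1.06 ± 0.19 at D3 (adjusted p = 6.8e-05) and 0.50 ± 0.19 at D7 (adjusted p = 0.033). The call at D7 was lost without replicate 4 of D7 (0.35), without replicate 1 or 4 of D0 and without a filter on low counts (0.59).

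miR-212-3p in FBs went from 2.24, 1.80, 3.49 and 3.98 CPM at D0 to 6.97, 8.01, 8.09 and 8.25 CPM at D3. Its libraries had 4.48, 5.48, 7.35 and 7.54 CPM at D7. Neither day overlapped D0. At D1 its libraries had 4.50, 7.51, 5.50 and 7.28 CPM, also wholly above D0, with a change of 0.84 ± 0.28 (log2, SE, edgeR, adjusted p = 0.066) that was called with DESeq2 (0.86), by library size (1.02) and with the replicate number as a block (0.90). The change was 1.04 ± 0.29 at D3 (log2, SE, edgeR, adjusted p = 0.0047) and 0.83 ± 0.29 at D7 (adjusted p = 0.021), and the call at D7 was lost without replicate 1 of D0 (0.66) or replicate 3 (0.78) or 4 (0.71) of D7.

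miR-212-5p, the more abundant strand of its hairpin, had 30.8, 35.2, 29.1 and 25.8 CPM in FBs at D0. It had 86.4, 65.3, 73.1 and 88.3 CPM at D7 and 65.0, 46.5, 68.9 and 35.5 CPM at D14. The 8 libraries of D7 and D14 lay above those of D0, and those of D28 (27.6, 33.7, 30.9 and 26.7 CPM) overlapped them. The change was 1.16 ± 0.21 at D7 (log2, SE, edgeR, adjusted p = 8.6e-05) and 0.81 ± 0.21 at D14 (adjusted p = 0.0054). At D3 the libraries had 39.0, 58.4, 53.4 and 38.7 CPM, above those of D0 in CPM but overlapping them on the TMM scale. The change at D3 was 0.33 ± 0.21 (adjusted p = 0.20) and was called by library size (0.66).

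miR-132-5p in FBs followed the same days. It had 8.33, 4.06, 8.69 and 6.79 CPM at D0, 18.2, 10.2, 18.9 and 21.9 CPM at D7 and 18.5, 13.0, 14.9 and 9.26 CPM at D14. No library of D7 or D14 overlapped D0. The change was 1.03 ± 0.24 at D7 (log2, SE, edgeR, adjusted p = 0.0012) and 0.89 ± 0.24 at D14 (adjusted p = 0.0080). At D3 the libraries had 12.4, 16.4, 11.8 and 13.9 CPM, also wholly above D0, and a change of 0.57 ± 0.24 (adjusted p = 0.058) that was called with DESeq2 (0.58) and by library size (0.89). Whether the days of the 3p and 5p strands differed was tested only through the strand ratios given further on. The summed FB markers miR-199a-5p, miR-199a-3p and miR-214-3p had means of 54638, 76397 and 53467 CPM at D0, D3 and D7 in these libraries, and the EC markers 27244, 30058 and 26328 CPM.

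In HCs the 3p strands rose at D1 and D3, and miR-132-5p fell at D28. edgeR called 4 of 20 comparisons with D0 higher and 1 lower, and called 54.3%, 59%, 49.5%, 28.1% and 24% of 608 tested miRNAs from D1 to D28. At D1 the 5p strands gave 0.48 ± 0.22 (log2, SE, adjusted p = 0.067) for miR-132-5p and 0.46 ± 0.22 (adjusted p = 0.082) for miR-212-5p. Both were called by library size (0.93 and 0.91), and miR-212-5p also with DESeq2 at D1 (0.68) and at D3 (0.75).

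miR-132-3p in HCs had 11.5, 11.9 and 14.9 CPM in the deep libraries of D0, and 109 CPM from 2 counts in the shallow one. It had 54.0, 46.2, 47.2 and 61.7 CPM at D1 and 43.1, 42.8, 33.2 and 50.8 CPM at D3. At D28 the libraries were back at 11.1, 12.7, 10.6 and 12 CPM. The libraries of D1 and D3 lay above the 3 deep libraries of D0, and the shallow library, at 109 CPM, above all others. The change was 1.53 ± 0.23 (log2, SE) at D1 (edgeR, adjusted p = 5.7e-06) and 1.13 ± 0.23 at D3 (adjusted p = 0.00015).

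miR-212-3p in HCs had 0.794, 1.45 and 1.19 CPM in the deep libraries of D0 and 0 in the shallow one. It had 4.63, 3.99, 3.63 and 10.3 CPM at D1 and 5.26, 4.28, 5.78 and 5.55 CPM at D3. Neither day overlapped D0 in CPM. On the TMM scale both days overlapped D0 only through the shallow library. At 0 counts it was placed at 3.49 (log2 CPM) by the pseudocount of 0.5, above the highest libraries of D1 (2.20) and D3 (1.47). The deep libraries of D0 lay below both days on that scale too. The change was 1.86 ± 0.40 (log2, SE) at D1 (edgeR, adjusted p = 0.00039) and 1.63 ± 0.40 at D3 (adjusted p = 0.0012). For miR-132-5p the deep libraries of D0 had 5.10, 5.11 and 5.49 CPM and those of D28 had 4.08, 3.05, 3.2 and 2.67 CPM. It fell by 1.00 ± 0.22 at D28 (log2, SE, edgeR, adjusted p = 0.00096), below the deep libraries of D0 in 4 of 4 libraries.

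The marker miRNAs in HC libraries moved over the same days. The summed HC markers went from a mean of 8025 CPM at D0 to 20538 CPM at D1 and 20693 CPM at D3, while the EC markers went from 72290 to 46849 and 18747 CPM and the CM markers from 109682 to 91546 and 49081 CPM. miR-126a-3p fell by 1.01 at D1 and by 2.43 at D3 (log2, edgeR, adjusted p = 0.00097 and 9.4e-09). The other EC marker, miR-126a-5p, gave -0.39 at D1 (adjusted p = 0.11) and -1.46 at D3 (adjusted p = 8.2e-07). Of the HC markers, miR-142a-3p, miR-142a-5p and miR-223-3p were called higher on both days. miR-150-5p was called lower on both (-0.91 and -0.80, adjusted p = 0.024 and 0.041). The rise of the 3p strands thus went with more summed HC marker and less summed EC marker signal, and the part of this shift in the result was not tested.

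In ECs, where the 3p strands were highest, no change from D0 passed the test. miR-132-3p had 72.7, 49.3, 67.8 and 55.6 CPM at D0, 62.6, 76.6, 81.5 and 93.9 CPM at D1 and 69.8, 77.2, 88.9 and 68.4 CPM at D3. At D28 the libraries had 81.8, 40.4, 47.2 and 11.3 CPM. The groups overlapped at each of these days, and D28 had the widest spread. edgeR called 0 of 20 comparisons (0 at an unadjusted p under 0.05, and 0 with DESeq2), and of 421 tested miRNAs it called 0% at D1 (17 unadjusted), then 17.6%, 22.6%, 14.5% and 47%. For miR-132-3p the change was 0.33 ± 0.30 (log2, SE) at D1 (adjusted p = 0.99), 0.28 ± 0.29 at D3 (adjusted p = 0.60) and -0.58 ± 0.31 at D28 (adjusted p = 0.12). At D28 the outcome depended on single libraries. Without replicate 1, miR-132-3p gave -1.01 and miR-132-5p -1.21, and without replicate 2, miR-212-3p gave -1.53, each past the threshold.

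Over all days together, each of the 4 members varied with time in CMs (edgeR, adjusted p = 0.00083 to 0.019), in FBs (adjusted p = 2.5e-05 to 0.0040) and in HCs (adjusted p = 1.8e-08 to 0.0058). In ECs 0 of 4 did (adjusted p = 0.11 to 0.62, 0 at an unadjusted p under 0.05, and 1 with DESeq2). The same test called 73.8%, 68.2% and 73.5% of all miRNAs tested in CMs, FBs and HCs and 58.2% in ECs.

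**Figure D3:**
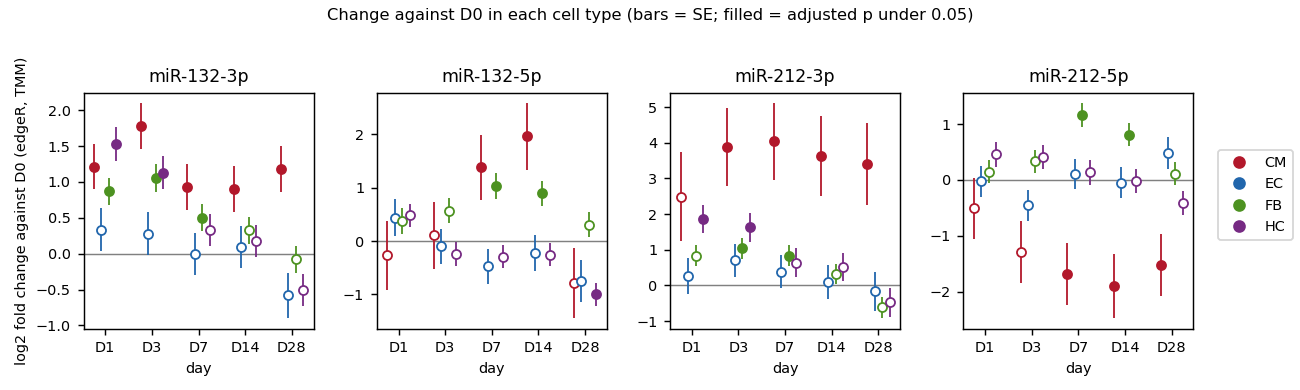
Log2 change against D0 on the TMM scale (y axis) by day after MI for each member and cell type, with bars of 1 SE; filled points passed an adjusted p of 0.05 in edgeR. miR-132-3p rose by 1.78 at D3 in CMs, 1.06 in FBs and 1.13 in HCs, and no EC point passed the test.

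Whether a change differed between cell types was tested directly, as the change in 1 cell type minus the mean change in the other 3, on all 96 libraries. Of 80 such differences 22 passed the threshold in edgeR, 7 of them in ECs, 13 in CMs, 2 in FBs, and in HCs 0 (3 unadjusted, and 3 with DESeq2). Among all tested miRNAs, 20.5%, 39.9%, 44.8%, 43.8% and 39.6% differed in this way in CMs from D1 to D28. The shares were 2.25%, 16.2%, 16.4%, 16.6% and 39.9% in ECs and 2.81%, 7.87%, 30.9%, 30.5% and 10.1% in FBs. HCs had 26.8%, 33.7%, 19.5%, 5.48% and 1.97%. miR-132-3p rose more in CMs than elsewhere at D3 (1.46 ± 0.34, log2, SE, adjusted p = 0.00026) and at D28 (1.84 ± 0.34, adjusted p = 4.6e-06), where 39.9% and 39.6% of all miRNAs differed in this way. Its difference was 1.03 at D7 and 1.05 at D14. With DESeq2 the values of D3, D7 and D14 were not past the threshold (0.92, 0.55 and 0.68), nor were those of D7 and D14 without a filter on low counts (0.78 and 0.89), nor D14 without replicate 4 of CMs at D14 (0.70).

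The 5p strands diverged in CMs. miR-132-5p changed by 1.64 ± 0.45 more in CMs at D7 (log2, SE, edgeR, adjusted p = 0.0015) and by 2.14 ± 0.45 more at D14 (adjusted p = 4.7e-05), and the first was 0.90 and not called without replicate 4 of CMs at D7. miR-212-5p changed by -1.86 ± 0.40 at D7 (adjusted p = 4.9e-05), -1.84 ± 0.41 at D14 (adjusted p = 0.00011) and -1.42 ± 0.41 at D28 (adjusted p = 0.0028) relative to the other cell types. On D7 and D14, 44.8% and 43.8% of all miRNAs differed in this way. Scaled by library size alone, miR-212-5p gave -0.17, 0.24 and 0.036 at D7, D14 and D28, and D28 was also not called without replicate 4 of CMs at D0 (-1.03).

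miR-132-3p changed less in ECs than in the mean of the others, by -1.14 ± 0.29 at D1 (log2, SE, edgeR, adjusted p = 0.028), -1.35 ± 0.29 at D3 (adjusted p = 0.00086) and -1.02 ± 0.30 at D28 (adjusted p = 0.0045). At these days 2.25%, 16.2% and 39.9% of all miRNAs differed in this way in ECs. The D1 difference was not past the threshold with DESeq2 (-1.02), no filter (-1.09), the replicate number as a block (-1.11) or without replicate 3 of ECs at D0, 1 or 3 of ECs at D1 or 4 of CMs at D1. That at D28 was not past it with DESeq2 (-0.67, adjusted p = 0.12) or without replicate 4 of ECs at D28 (-0.69). In FBs, miR-212-5p rose more than elsewhere at D7 (1.59 ± 0.37, adjusted p = 0.00047) and, at D14, by 1.38 ± 0.37 (adjusted p = 0.0031), where 30.9% and 30.5% of miRNAs differed, and by library size alone the second was 0.44 and not called.

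The ratio of the 5p to the 3p strand was taken within each library and does not depend on its scaling. Among pooled counts the 5p strand made up 11.8% of miR-132 in ECs, 19.9% in HCs, 21.5% in FBs and 45.7% in CMs. For miR-212 it made up 76.5%, 86.8%, 90.1% and 77.1%. The 3p strand of miR-132 was the more counted one in all measured libraries of ECs, FBs and HCs, but the 5p strand was in 7 of 24 CM libraries. The 5p strand of miR-212 was the more counted one in all measured libraries but 2, both CM.

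Log2 of 5p over 3p for miR-132, compared over all days with limma, was 2.09 ± 0.17 (SE) higher in CMs than in ECs (adjusted p = 3.1e-18), 1.20 ± 0.17 higher than in FBs (adjusted p = 6.4e-09) and 1.29 ± 0.18 higher than in HCs (adjusted p = 1.3e-09). It was 0.90 ± 0.17 lower in ECs than in FBs (adjusted p = 8.7e-06) and 0.80 ± 0.18 lower than in HCs (adjusted p = 6.7e-05), while FBs minus HCs was 0.10 ± 0.18 (adjusted p = 0.67). For miR-212 the ratio was 1.08 ± 0.27 lower in CMs than in FBs (adjusted p = 0.00031) and 0.97 ± 0.26 lower in ECs than in FBs (adjusted p = 0.0013), and the other 4 pairs were not past the threshold. Of all hairpins tested, 75.2%, 74.3%, 61.9%, 65.5%, 66.4% and 44.2% differed between CMs and ECs, CMs and FBs, CMs and HCs, ECs and FBs, ECs and HCs, and FBs and HCs.

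In HCs both hairpins shifted toward the 3p strand at D1 and D3. For miR-132 the log2 ratio was -1.16, -1.22 and -1.44 at D0, -2.09, -2.39, -2.68 and -2.48 at D1 and -2.76, -2.66, -2.39 and -3.01 at D3. All 8 libraries after MI lay below the 3 of D0. The difference was -1.14 ± 0.22 (SE) at D1 (limma, adjusted p = 0.0013) and -1.44 ± 0.22 at D3 (adjusted p = 5.2e-05). miR-212 changed by -1.27 ± 0.36 at D1 (adjusted p = 0.016) and -1.25 ± 0.36 at D3 (adjusted p = 0.014), where 24.7% and 27.3% of hairpins were called (7.33%, 4% and 6% at the later days, when neither hairpin was). Over all days both hairpins varied in HCs (adjusted p = 0.00095 for miR-132 and 0.017 for miR-212), as did 26% of hairpins. The miR-212 calls were lost without replicate 4 of D0 (-1.11 and -1.09), and with the shallow library kept (-0.42 and -0.40), and that at D1 also without replicate 4 of D1 (-0.97).

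In CMs the miR-132 ratio went in both directions. Its mean was -0.06 at D0 and then -1.47, -1.65, 0.0039, 0.88 and -1.90 in the order of the days, and it varied over all days (limma, adjusted p = 0.0044), as did 73.4% of 94 hairpins. Replicates 1 to 4 had -1.72, -0.77, 0.64 and 1.86 at D7 and 0.10, 2.83, 0.98 and -0.38 at D14, the widest spreads of any group of this hairpin. Against D0 the ratio was lower at D3 (-1.58 ± 0.69, limma, adjusted p = 0.045) and at D28 (-1.84 ± 0.69, adjusted p = 0.023), where 70.2% and 69.1% of hairpins were called (44.7% at D1, 73.4% at D7 and 76.6% at D14). Both calls rested on the D0 libraries, which held 40 counts of the 5p and 37 of the 3p strand in all, and were lost without replicate 2 (-1.38 and -1.63) or 3 (-1.24 and -1.49) of D0. D3 was also lost without replicate 1, 2 or 4 of D3, and D28 without replicate 4 of D28. For miR-212 in CMs the ratio was called lower from D3 to D28 (-4.37, -4.86, -4.62 and -3.91), with the 3p strand of D0 at 1 count.

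In ECs 0 of 10 and in FBs 0 of 10 differences of a day from D0 passed the limma threshold (1 and 5 at an unadjusted p under 0.05). By day, 0%, 2.97%, 0%, 0% and 40.6% of the hairpins were called in ECs and 2.72%, 23.1%, 21.1%, 5.44% and 0.68% in FBs. Over all days, miR-132 and miR-212 had adjusted p = 0.52 and 0.061 in ECs, where 43.6% of hairpins passed. Over all days together, however, both hairpins varied in FBs (adjusted p = 0.00076 for miR-132 and 0.0016 for miR-212), where 49.7% of hairpins did. In FBs the mean miR-132 ratio was -2.45 and -2.43 at D1 and D3 and -1.47, -1.41 and -1.57 at D7, D14 and D28, and that of miR-212 was 2.63 and 2.57 and then 3.66, 3.85 and 4.04. The mean ratio of both hairpins was thus lower at D1 and D3 than at the later days, with D0 in between. Against D0, miR-132 differed by -0.40 and -0.38 at D1 and D3 and by 0.58, 0.64 and 0.48 later. For miR-212 the differences were -0.77 and -0.84 and then 0.25, 0.45 and 0.63, and none of these passed the threshold.

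**Figure D4:**
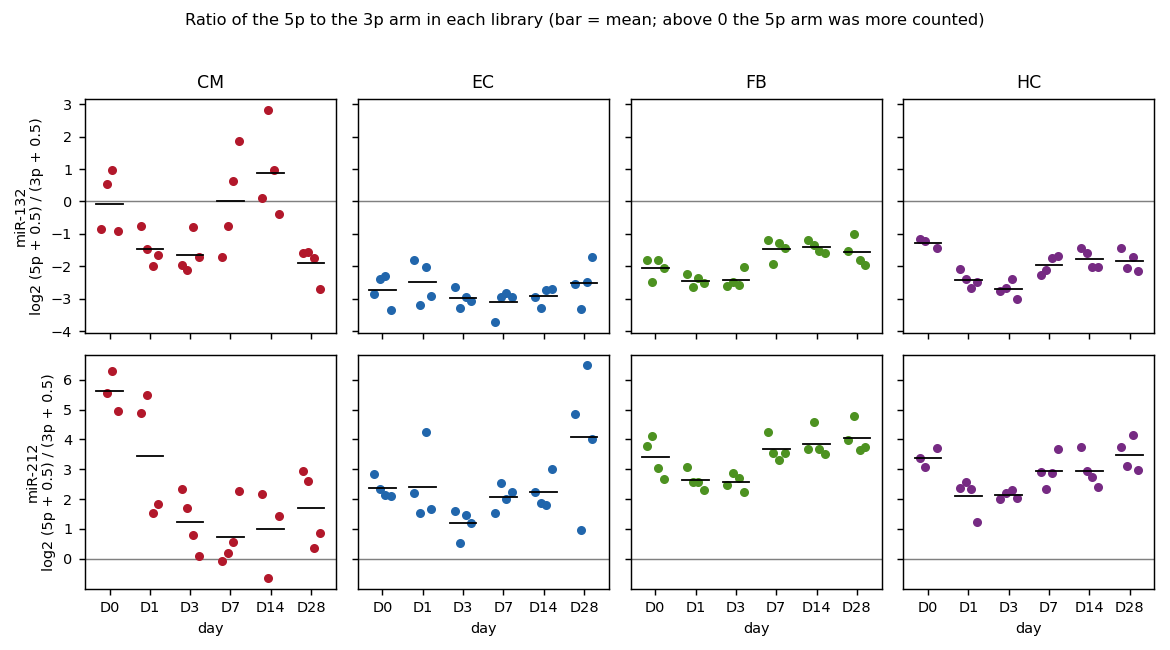
Log2 of 5p over 3p counts (y axis, pseudocount 0.5) of miR-132 and miR-212 in each library (points) by cell type and day after MI, with means as bars; libraries with fewer than 10 counts over both strands are left out. miR-132 lay below 0 in every EC, FB and HC library shown and reached 2.83 in CMs at D14.

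The 2 hairpins were also set against each other within each library, for the same strand. Log2 of miR-212-3p over miR-132-3p did not separate any pair of cell types (differences of -0.11 to 0.29, permutation test of 100000 resamples, two-sided, adjusted p = 0.53 to 0.76). Log2 of miR-212-5p over miR-132-5p was lower in CMs than in ECs by 1.86 and than in FBs by 2.01 (adjusted p = 6e-05 for both, from the smallest p these resamples can give), and than in HCs by 1.53 (adjusted p = 0.00018). It was also 0.48 higher in FBs than in HCs (adjusted p = 8e-05). These ratios kept the shallow library of HCs at D0, in which both 5p strands were at 0 counts.

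By day, miR-212-5p made up 74.2% of the pooled 5p counts of both hairpins in CMs at D0, then 24% and 19.7% at D7 and D14, and 61.2% at D28. In ECs its share was 71.5% to 90.0% and in FBs 77.0% to 80.1%. Log2 of miR-212-5p over miR-132-5p in CMs had replicate values of 0.00, 1.31, 0.95 and 3.37 at D0, -0.41, -1.04, -1.45 and -2.02 at D7 and -0.92, -4.07, -2.43 and -1.11 at D14. D7 and D14 lay wholly below D0, with mean differences of -2.63 and -3.54. Each had the smallest p that 4 against 4 libraries allow (exact permutation test, two-sided, p = 0.0286), which gave 0.229 after adjustment over the 40 comparisons of the 2 strands, so 0 of 40 passed. The other 3 at this p were the 3p pair in CMs at D7 (1.87) and the 5p pair in HCs at D3 (0.97) and D28 (0.93). For the 5p pair in HCs, the deep libraries of D0 had 0.72, 1.27 and 1.52. The shallow library entered at 0, from the pseudocount alone, and lowered the D0 mean.

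Ordered over the 24 groups by mean log2 CPM on the TMM scale, miR-132-3p was highest in ECs at D3 (6.08 ± 0.13, SD, n = 4), followed by ECs at D1 (6.07), D7 (6.04), D0 (5.98) and D14 (5.93), and lowest in CMs at D0 (2.22 ± 0.47). FBs at D3 (5.71) and D1 (5.52) stood above ECs at D28 (5.22). miR-212-3p was also highest in ECs at D3 (3.13) and lowest in CMs at D0 (-1.61). The places of HCs at D0 (miR-132-3p 3.81 ± 1.35 and miR-212-3p 0.61 ± 1.94) include the shallow library, in which the members could not be measured. miR-132-5p was highest in CMs at D14 (4.21 ± 1.01) and lowest in HCs at D28 (1.01), and miR-212-5p highest in FBs at D7 (5.94 ± 0.13) and lowest in CMs at D14 (2.07). For each member all 23 pairs of neighbours in the order overlapped. The order was set by the same means, so neighbours were the closest groups, and this overlap is no test of whether groups differed.

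Over these 24 group means the miRNA most like miR-132-3p, among 300 compared (averaging 10 CPM or more, plus the other members at any level), was miR-212-3p (Pearson r = 0.94), and the reverse held for miR-212-3p. Next to miR-132-3p came miR-672-5p (0.84), miR-451a (0.83), miR-122b-3p (0.80) and miR-5121 (0.79). Next to miR-212-3p came miR-451a (0.79), miR-672-5p (0.71), miR-369-3p (0.71) and miR-450b-3p (0.69). The other strands were less alike, since miR-212-5p ranked 10 (0.77) and miR-132-5p, from the same hairpin as miR-132-3p, ranked 50 (0.53). The points share libraries and scaling, and that of HCs at D0 includes the shallow library. miR-451a is abundant in red cells, and the summed red cell markers miR-451a and miR-144-3p went from a mean of 1.31 CPM at D0 to 14.4 CPM at D3 in CM libraries and from 138 to 585 CPM in ECs, and their part in this likeness was not tested.

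Among 24 miRNAs known from cardiac remodeling (23 tested in ECs and FBs), 9 were called higher and 3 lower in CMs at D3 and 12 and 5 at D7, when the 3p strands were up. In FBs 2 were higher and 9 lower at D3 and 3 and 14 at D7, and in HCs 2 were higher and 15 lower at D1. Of all tested miRNAs, 154 were called higher and 113 lower in CMs at D3 and 188 and 146 at D7, 129 and 113 in FBs at D3 and 138 and 119 at D7, and 154 and 176 in HCs at D1. The list median at D3 was 0.54 in CMs, -0.46 in FBs and -0.72 in HCs (log2), beside 0.44, 0.06 and 0.02 for all tested miRNAs. In FBs, miR-155-5p, a miRNA of inflammation, rose by 2.87 ± 0.29 (SE) at D3 (edgeR, adjusted p = 7.0e-08), when miR-132-3p rose by 1.06. In CMs, miR-208b-3p, encoded within the slow myosin gene Myh7, rose by 4.31 ± 0.52 at D14 (adjusted p = 4.0e-07) and miR-29b-3p, a repressor of collagen genes, by 4.34 ± 0.60 at D7 (adjusted p = 2.3e-06). miR-29b-3p fell by 2.27 in FBs at D14 (adjusted p = 0.0016) and fell by 2.64 in ECs at D28 (adjusted p = 0.00011). miR-499-5p, a muscle miRNA, fell by 2.42 in ECs at D28 (adjusted p = 6.6e-06) and fell by 2.20 in HCs at D7 (adjusted p = 1.9e-07), when miR-133a-3p, also of muscle, fell by 2.23 (adjusted p = 1.4e-07).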

How the data were processed

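Small RNA libraries were made with the NEBNext kit, which ligates adapters to small RNAs with a 5′ phosphate, and size-selected on gels. The authors trimmed reads with Trim Galore and aligned them with Bowtie2 to miRBase sequences in the nf-core smrnaseq workflow, with SAMtools for counting. The deposited values are raw read counts per mature miRNA and library, not normalised, without molecular identifiers, so that intervals cover counting error only. How reads matching several miRNAs were counted is not given in the sources used here. The line of unmatched reads (25.6% to 83.0% of a library) was left out of library sizes, and hairpin tables were not used.

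CPM were computed from the sum of mature counts. Counts were fitted with edgeR 4.0.16 (quasi-likelihood, TMM, filterByExpr) in R 4.3.3, within a cell type (24 libraries) and over 96 libraries, with Benjamini-Hochberg adjustment over all tested miRNAs. Strand ratios were log2((5p + 0.5)/(3p + 0.5)), fitted with limma 3.58.1 over hairpins whose strands each averaged 10 counts or more, and libraries with fewer than 10 counts over both were set to missing. Ratios of miR-212 to miR-132 were compared with exact permutation tests (70 arrangements for 4 against 4) or, between cell types, 100000 permutations of the cell type within days, in scipy 1.17.1. The threshold was an adjusted p of 0.05. Scripts were tested on simulated data.

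The members are defined by name alone, but they and the lists were proposed with earlier results of these data known. Named beside the members are the 5 miRNAs most like each 3p strand over 24 groups (mean of at least 10 CPM, with the other members compared as an exception, so that miR-212-3p at a mean of 4.00 CPM is named) and the 2 of the remodeling list with the largest change in each cell type. All 96 libraries were used, although the study removed 1 replicate each from HCs and FBs at D0 and from ECs at D28. Within a group, replicates are pools of different mice, but per the study the cell types of a day came from the same animals. Whether equal replicate numbers mark the same mice is not given in the sources used here. Alternatives were scaling by library size, DESeq2 1.42.0, no filter, only the days compared, a replicate block, other pseudocounts and count minimums, and leaving out libraries.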

Additional observations from a re-analysis of the deposited data

Results flagged for a closer look

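Single libraries stood apart by Dixon's test in 8 of 96 groups of 4 CPM values and in 2 of 44 groups of strand ratios, and chance gives about 1 in 20. HCs at D0 held 2 of them in replicate 3, the library with 18286 counts, at 109 CPM of miR-132-3p (others 11.5 to 14.9) and 0 CPM of miR-132-5p (others 5.10 to 5.49). In CMs, replicate 2 at D14 had 40.4 CPM of miR-132-5p (others 8.33 to 12), and replicate 4 at D0 had 0.0765 CPM of miR-212-3p from 1 count (others 0). In FBs at D1, replicate 2 had 8.61 CPM of miR-132-5p (others 11.3 to 11.7). In HCs at D1, replicate 4 had 10.3 CPM of miR-212-3p (others 3.63 to 4.63) and replicate 3 had 18.6 CPM of miR-212-5p (others 23.9 to 24.3), and at D28 replicate 1 had 13.4 CPM of miR-212-5p (others 10.5 to 10.8). The log2 strand ratio of miR-132 was -3.73 in replicate 1 of ECs at D7 (others -2.96 to -2.82), and that of miR-212 was 4.57 in replicate 2 of FBs at D14 (others 3.51 to 3.67).

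The change against D0 in 1 cell type differed from the mean change of the other 3 in 22 of 80 tests (edgeR, log2), beside the shares of all tested miRNAs given with these tests above. In CMs, miR-132-3p differed by 1.46, 1.03, 1.05 and 1.84 from D3 to D28, and miR-212-3p by 3.34, 3.89, 3.73 and 4.12 on the same days. miR-132-5p differed in CMs by 1.64 at D7 and 2.14 at D14, and miR-212-5p by -1.86, -1.84 and -1.42 from D7 to D28. In ECs, miR-132-3p differed by -1.14 at D1, -1.35 at D3 and -1.02 at D28, miR-212-3p by -1.82 at D3, miR-132-5p by -1.32 at D7 and -1.33 at D14, and miR-212-5p by 0.92 at D28. In FBs, miR-212-5p differed by 1.59 at D7 and 1.38 at D14. The values of miR-212-3p in CMs rest on 1 count at D0, and that at D3 was not called with DESeq2 (2.60) or without replicate 1 or 3 of CMs at D0 (3.01 and 2.74). In ECs, miR-212-3p at D3 was not called with the replicate block (-1.78, adjusted p = 0.059, edgeR), nor without replicate 2 or 3 of CMs at D0, 3 of ECs at D0 or 3 or 4 of ECs at D3 (-1.55 to -1.73). The EC values of miR-132-5p were not called without replicate 3 of ECs at D0 (-0.98 at both days), nor that at D7 without replicate 1 of D7 (-1.14) or that at D14 without replicate 4 of D14 (-1.18). miR-212-5p in ECs at D28 was not called by library size (0.41), with no filter (0.76), with the replicate block (0.88), or without the libraries of either set of 3 left out together (0.83 and 0.66), and leaving out single libraries gave values down to 0.67 without replicate 4 of ECs at D28.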

How the results depend on the processing

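Log2 values are given throughout, and where a value changed, the cause was not tested. Scaled by library size alone, miR-212-5p in CMs gave 0.64, 0.68 and 0.14 at D7, D14 and D28, and its difference from the other cell types 0.24 at D14 and 0.036 at D28. miR-132-5p then gave 1.44 for that difference at D28 and -0.90 for CMs minus HCs, miR-132-3p gave -2.36 for CMs minus HCs and 0.76 in HCs at D7, 11 of 20 HC comparisons were called, and 35 of 80 differences between cell types in the change. CMs minus HCs of miR-132-3p passed the threshold with DESeq2 (-0.49), no filter (-0.55) and without replicates 4 of HCs and FBs at D0 and of ECs at D28 (-0.25). With only the libraries of the days compared, miR-132-3p in CMs gave 1.24 at D1 and 0.96 at D14, neither past the threshold, in ECs -0.015 at D14, and 9 CM comparisons were called, miR-212-3p not being tested at D1, D14 and D28. DESeq2 called 1 of 4 members over all days in ECs. Without the farthest libraries of HCs and FBs at D0 and of ECs at D28 (replicates 3, 2 and 3), miR-132-3p in ECs gave -0.081 at D7 and -0.82 at D28, the latter being the 1 EC call, the miR-212 strand ratio 0.023 for CMs minus ECs and -0.58 for ECs minus HCs, and the 3p ratio of miR-212 to miR-132 gave 0.017, 0.042 and 0.024 for ECs minus FBs, ECs minus HCs and FBs minus HCs. Without replicates 4 as above, ECs at D14 gave -0.0041 for miR-132-3p. With no filter miR-132-3p in FBs at D7 gave 0.59, not past the threshold. With a pseudocount of 5 the miR-212 strand ratio gave -1.12 for CMs minus HCs, -0.74 for ECs minus HCs and 0.59 for FBs minus HCs, the 3p ratio of miR-212 to miR-132 gave 0.68, 1.00 and 0.82 for CMs minus ECs, FBs and HCs, 0.32 for ECs minus FBs and 0.14 for ECs minus HCs, and the 5p ratio -0.29 for ECs minus FBs. With single libraries left out, miR-132-3p ranged from 0.46 to 1.17 in CMs at D14, -0.11 to 0.10, -0.14 to 0.28 and -1.01 to -0.25 in ECs at D7, D14 and D28, 0.35 to 0.57 and -0.16 to 0.00084 in FBs at D7 and D28, -0.062 to 0.30 in HCs at D14, and -0.34 to -0.15 for CMs minus HCs. EC calls ranged from 0 to 2 of 20 and from 0 to 3 of 4 over all days (highest without replicate 1 of D28), HC calls from 5 to 9 (highest without replicate 4 of D3), and the miR-212 strand ratio from -0.28 to 0.025, -0.67 to -0.42 and -0.58 to -0.27 for CMs minus ECs, CMs minus HCs and ECs minus HCs. Same-numbered replicates deviated together (r over 0.1) in 80 of 240 pairs within cell types. Between cell types of a day, which share mice, the mean r per day was -0.012 to 0.14 for equal and -0.048 to 0.0060 for different numbers, highest at D1 (11 of 24 pairs over 0.1) and D14 (13 of 24), so pairing by number was not shown for every pair. With the replicate block, 14, 0, 10 and 5 comparisons were called in CMs, ECs, FBs and HCs, 19 of 24 differences between cell types and 21 of 80 in the change, with calls gained for miR-132-5p in HCs at D7 (-1.28) and D14 (-1.31). At a minimum of 50 counts per strand, miR-212 in CMs, ECs and HCs and miR-132 in ECs were not tested. Depth limits miR-212-3p most.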
